A study of Sus scrofa with 4 samples.

Results

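Interferon response genes were described in pig kidneys before and after transplantation into non-human primates, from RNA sequencing of 4 libraries with 1 library in each group. The members were 40 listed genes known to be induced by interferon, and they were taken from the count tables by symbol when at least 1 library held 10 or more counts. Of the 40 symbols, 37 had a row and 34 were kept, among 18168 genes kept of 26466 symbols in all. The members were split by textbook knowledge into 31 genes induced mainly by type I interferon, of which 27 were kept, and 9 induced mainly by type II interferon, of which 7 were kept. Many genes answer both interferons, so the split is a matter of emphasis. BST2 had no count in any library, CXCL9 at most 6 and ISG20 at most 7, and these 3 were measured but not tested. IFIT5, GBP5 and SP100 were not analysed here under those symbols. UBE2L6 and CXCL11 were kept through the transplanted libraries alone, and the other 32 had 10 or more counts in an untransplanted kidney.

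All 4 kidneys came from pigs without the galactosyltransferase that makes the alpha-Gal sugar (GalT-/-) and with the human transgenes hCD39 and hCD55. The first genotype, written CD39/CD46/CD55/TBM, also carried hCD46 and thrombomodulin (TBM), and its kidneys were sampled 6 weeks after transplantation and untransplanted. The second, CD39/CD55, carried no further transgene by its label, and its kidneys were sampled 4 weeks after transplantation and untransplanted. The promoters of the transgenes, the number of animals and whether both kidneys of a genotype came from 1 animal are not known here. By its design text, the series asked which genotype better relieves the rejection response. Genotype, time after transplantation and recipient cannot be told apart in the transplanted pair. No single pair of libraries has a replicate check.

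Interferons are signalling proteins secreted by cells that sense foreign nucleic acid and by activated lymphocytes. Type I interferons bind the receptor IFNAR and activate the complex ISGF3, which holds STAT2 and IRF9 and switches on antiviral genes such as the Mx, OAS and IFIT families. Type II interferon, made mainly by T and NK cells, binds the receptor IFNGR and induces IRF1, the guanylate-binding proteins and chemokines that attract T cells. In transplanted organs, both sets of genes are read as signs of immune activity, and tubular and endothelial cells can express them as well as leukocytes.

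Library totals lay between 10346863 and 14092905 counts, with both transplanted kidneys below both untransplanted ones. Ribosomal RNA loci took 18.9% and 22.4% of counts in the transplanted CD39/CD46/CD55/TBM and CD39/CD55 kidneys, against 12.6% and 10.8% in the untransplanted ones. The 13 mitochondrially encoded genes took 12.6% and 4.23% in the transplanted kidneys, against 15.0% and 10.6% in the untransplanted ones. The general kidney epithelium markers were present in every library, with summed levels between 458 and 675 CPM, so the tissue label was met. Levels are given as CPM, the usual depth-scaled unit for counts, after TMM scaling, and 3 counts, the limit that a count of 0 allows, correspond to between 0.219 and 0.29 CPM. In the tissue RNA measured here, fewer cells of a type and less RNA per cell cannot be told apart, and the handling of reads from recipient cells is unknown here.

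Most type I members were above their untransplanted level in the transplanted kidneys of both genotypes, with 15 of 27 called at least 2-fold higher in both. IRF1, GBP1 and GBP2 of type II were called higher in CD39/CD46/CD55/TBM and not in CD39/CD55. Transplanted and untransplanted kidneys were first tested over both genotypes, 2 libraries against 2, with edgeR's quasi-likelihood test and Benjamini-Hochberg adjustment over all 18168 genes. In that test 9 of 27 type I members and 1 of 7 type II members rose, while 1.24% of all genes rose. No member fell, while 2.71% of all genes fell. At an unadjusted p under 0.05, 18 type I and 3 type II members were higher and none was lower, against 8.99% and 10.7% of all genes, and DESeq2 and limma voom also found no member that fell. In 27 of the 34 members both transplanted kidneys lay above both untransplanted ones, as did 26.3% of all genes. UBE2L6 and CXCL11, which were kept through the transplanted libraries alone, are among the 27. CXCL11 is also among the 3 type II members at that unadjusted p. The median log2 fold change was 1.63 over the type I members and 1.24 over the type II members, and 0.03 over all genes. With genotype as a block, 16 type I members and 1 type II member rose, as did 6.19% of all genes. The members that rose without the block were ISG15, HERC6, IFIT3, MX1, OAS2, IFI6, IFI44, XAF1 and PARP14 of type I and CXCL10 of type II. Those that passed with the block alone were USP18 (adjusted p = 0.0263), IFIT1 (0.0292), IFIT2 (0.0218), OAS1 (0.0247), RSAD2 (0.0462), CMPK2 (0.0358) and IFI44L (0.0166).

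**Figure D1:**
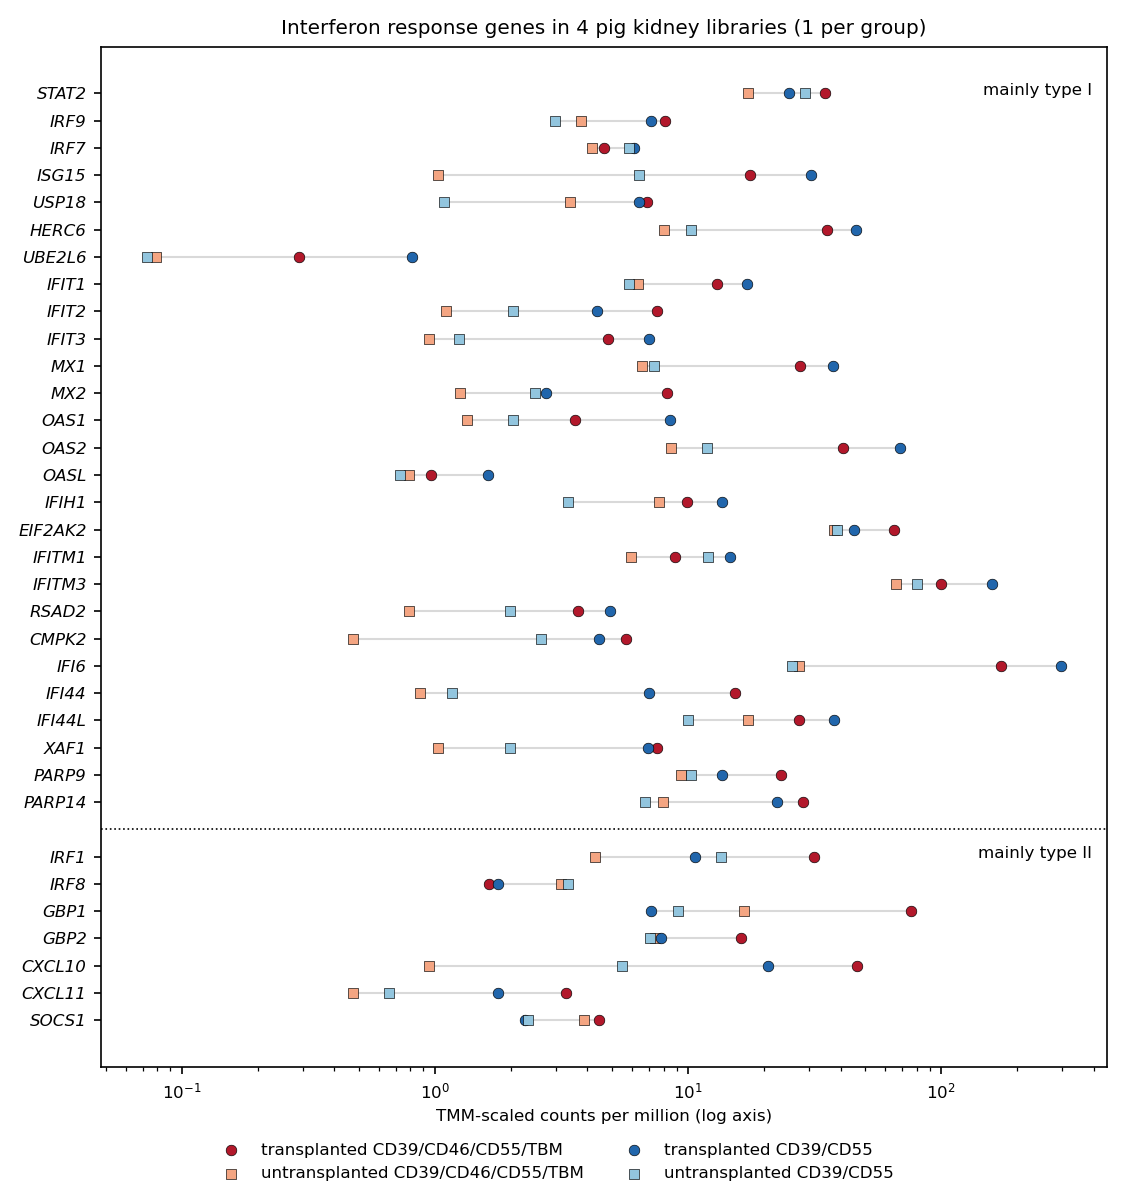
Level of the 34 kept members in each of the 4 libraries, in TMM-scaled CPM on a log axis, with 1 point per library (circles transplanted, squares untransplanted). In 24 of 27 type I members and 3 of 7 type II members both circles lie to the right of both squares. These include UBE2L6 of type I and CXCL11 of type II, which were kept through the transplanted libraries alone.

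Among the genes that carry the type I signal into the nucleus, no change passed the test. STAT2, the ISGF3 subunit on chromosome 5 (21733030 to 21748960, Sscrofa11.1), had 34.6 CPM in the transplanted and 17.3 in the untransplanted kidney of CD39/CD46/CD55/TBM, and 25.0 in the transplanted and 28.9 in the untransplanted CD39/CD55 kidney. The 2 genotypes thus lay on opposite sides, with the transplanted kidney high in one and slightly low in the other, and the groups overlapped (log2 fold change 0.36, SE 0.43, adjusted p = 0.678). IRF9, the DNA-binding subunit of ISGF3, had 8.12 CPM in the transplanted and 3.79 in the untransplanted kidney of CD39/CD46/CD55/TBM, and 7.11 and 2.99 CPM in the transplanted and untransplanted CD39/CD55 kidneys. Both transplanted kidneys were above both untransplanted ones, but the gene did not pass (log2 fold change 1.17, SE 0.50, adjusted p = 0.217). IRF7, a factor that amplifies interferon production, stayed between 4.19 and 6.14 CPM in all 4 libraries.

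The ISG15 system, which attaches a ubiquitin-like protein to targets, held 2 of the members that rose. ISG15 itself (chromosome 6, 63363201 to 63364211) had 182 counts in the transplanted and 13 in the untransplanted kidney of CD39/CD46/CD55/TBM, and 379 in the transplanted and 88 in the untransplanted CD39/CD55 kidney. Both transplanted kidneys were high, and the untransplanted kidney of CD39/CD46/CD55/TBM was the lowest library. ISG15 rose by a log2 fold change of 2.69 with an SE of 0.68 (adjusted p = 0.0461). The call was lost when that lowest library was left out or when 10 counts were required in each library (9.94e-06 to 0.0861 over the alternatives). HERC6, the ISG15 ligase in mouse, had 365 counts in the transplanted and 102 in the untransplanted kidney of CD39/CD46/CD55/TBM, and 571 in the transplanted and 141 in the untransplanted CD39/CD55 kidney. The gene was high in both transplanted kidneys to a like degree and rose by 2.15 (SE 0.43, adjusted p = 0.017), a call lost when the untransplanted library of CD39/CD46/CD55/TBM was left out (0.0644). USP18, the enzyme that removes ISG15 and restrains the type I receptor, had 71 counts in the transplanted and 43 in the untransplanted kidney of CD39/CD46/CD55/TBM, and 79 in the transplanted and 15 in the untransplanted CD39/CD55 kidney (log2 fold change 1.56, SE 0.61, adjusted p = 0.176). UBE2L6, the conjugating enzyme of ISG15, had 3, 1, 10 and 1 counts in the transplanted and untransplanted CD39/CD46/CD55/TBM and the transplanted and untransplanted CD39/CD55 kidneys, too few for a comparison.

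Of the Mx and OAS antiviral families, 2 of 5 kept members rose. MX1, a GTPase that blocks viral replication (chromosome 13, 204843049 to 204868927), had 27.6 CPM in the transplanted and 6.56 in the untransplanted kidney of CD39/CD46/CD55/TBM, and 37.4 in the transplanted and 7.36 in the untransplanted CD39/CD55 kidney. The untransplanted kidneys were close to each other, and both transplanted ones stood well above them (log2 fold change 2.22, SE 0.43, adjusted p = 0.0155). MX2, its neighbour on the chromosome, had 8.22 CPM in the transplanted and 1.26 in the untransplanted kidney of CD39/CD46/CD55/TBM, but 2.75 in the transplanted and 2.48 in the untransplanted CD39/CD55 kidney (adjusted p = 0.22). OAS2, which makes the oligoadenylates that activate RNase L, had 41.1 CPM in the transplanted and 8.54 in the untransplanted kidney of CD39/CD46/CD55/TBM, and 68.6 in the transplanted and 11.9 in the untransplanted CD39/CD55 kidney. OAS2 rose by 2.42 (SE 0.45, adjusted p = 0.0127), and the transplanted CD39/CD55 kidney was the highest library. OAS1 had the same order of libraries, with 37 counts in the transplanted and 17 in the untransplanted kidney of CD39/CD46/CD55/TBM and 105 in the transplanted and 28 in the untransplanted CD39/CD55 kidney (adjusted p = 0.12). OASL, their relative, reached at most 20 counts.

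The IFIT proteins bind viral RNA, and 1 of 3 kept members of the family rose. IFIT3 (chromosome 14, 101214730 to 101225169) had 50 counts in the transplanted and 12 in the untransplanted kidney of CD39/CD46/CD55/TBM, and 87 in the transplanted and 17 in the untransplanted CD39/CD55 kidney, and it rose by 2.43 on the same scale, with SE 0.59 and adjusted p = 0.0396. Its call was lost under limma voom and when either untransplanted library was left out (0.00317 to 0.124). IFIT1 had log2 ratios of 1.03 in CD39/CD46/CD55/TBM and 1.55 in CD39/CD55, and IFIT2 of 2.73 and 1.09, and neither passed (adjusted p = 0.129 and 0.101).

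IFI6, an interferon-induced membrane protein, had the smallest adjusted p of all members. Its counts were 1783 in the transplanted and 348 in the untransplanted kidney of CD39/CD46/CD55/TBM, and 3693 in the transplanted and 354 in the untransplanted CD39/CD55 kidney (log2 fold change 3.14, SE 0.48, adjusted p = 0.0046; chromosome 6, 84852782 to 84858072). The untransplanted kidneys were alike, and the transplanted CD39/CD55 kidney was the highest library. IFI44, a cytoplasmic interferon-induced protein, had 158 counts in the transplanted and 11 in the untransplanted kidney of CD39/CD46/CD55/TBM, and 87 in the transplanted and 16 in the untransplanted CD39/CD55 kidney, and rose by 3.44 (SE 0.60, adjusted p = 0.00921). Here the transplanted kidney of CD39/CD46/CD55/TBM was the highest. Its neighbour IFI44L had 285 counts in the transplanted and 218 in the untransplanted kidney of CD39/CD46/CD55/TBM, and 465 in the transplanted and 137 in the untransplanted CD39/CD55 kidney (adjusted p = 0.137).

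XAF1, which promotes cell death by binding an apoptosis inhibitor, had 78 counts in the transplanted and 13 in the untransplanted kidney of CD39/CD46/CD55/TBM, and 86 in the transplanted and 27 in the untransplanted CD39/CD55 kidney (log2 fold change 2.26, SE 0.57, adjusted p = 0.0452). PARP14, an ADP-ribosyltransferase, had 294 counts in the transplanted and 101 in the untransplanted kidney of CD39/CD46/CD55/TBM, and 277 in the transplanted and 93 in the untransplanted CD39/CD55 kidney (log2 fold change 1.78, SE 0.43, adjusted p = 0.0378). Both genes were high to a like level in the 2 transplanted kidneys, and each call was lost under 3 of 12 alternatives, as was that of IFIT3. The XAF1 call was lost under limma voom and when either library of CD39/CD46/CD55/TBM was left out, with an adjusted p of 0.00305 to 0.172. The PARP14 call was lost when either of those or the untransplanted CD39/CD55 library was left out (0.0012 to 0.202).

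The remaining type I members did not pass without the block. RSAD2, the antiviral enzyme viperin, had log2 ratios of 2.16 in CD39/CD46/CD55/TBM and 1.31 in CD39/CD55. CMPK2, a nucleotide kinase beside it on chromosome 3, had 59 counts in the transplanted and 6 in the untransplanted kidney of CD39/CD46/CD55/TBM, and 55 in the transplanted and 36 in the untransplanted CD39/CD55 kidney. Its transplanted kidneys were thus alike, and the untransplanted kidney of CD39/CD46/CD55/TBM stood low (adjusted p = 0.212). IFIH1, the double-stranded RNA sensor MDA5, had 9.86 CPM in the transplanted and 7.67 in the untransplanted kidney of CD39/CD46/CD55/TBM, and 13.6 in the transplanted and 3.35 in the untransplanted CD39/CD55 kidney. EIF2AK2, the kinase PKR that halts translation, and PARP9 had ratios of 0.79 and 1.31 in CD39/CD46/CD55/TBM and 0.22 and 0.40 in CD39/CD55. IFITM1 and IFITM3, which restrict viral entry, had ratios of 0.58 and 0.60 in CD39/CD46/CD55/TBM and 0.28 and 0.99 in CD39/CD55. The 2 IFITM genes lie side by side on chromosome 2 and are close paralogs, so reads may be split between them.

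Type II members were then described. CXCL10, a ligand of the receptor CXCR3 on T and NK cells, had 46.5 CPM in the transplanted and 0.948 in the untransplanted kidney of CD39/CD46/CD55/TBM, and 20.7 in the transplanted and 5.46 in the untransplanted CD39/CD55 kidney. It was the type II member that rose (log2 fold change 3.38, SE 0.70, adjusted p = 0.0199), and both transplanted kidneys were far above both untransplanted ones. CXCL11, another CXCR3 ligand, had 34 counts in the transplanted and 6 in the untransplanted kidney of CD39/CD46/CD55/TBM, and 22 in the transplanted and 9 in the untransplanted CD39/CD55 kidney (adjusted p = 0.145). CXCL9, the third such ligand and a gene that answers type II interferon most specifically, had 5 counts in the transplanted and 5 in the untransplanted kidney of CD39/CD46/CD55/TBM, and 6 in the transplanted and 3 in the untransplanted CD39/CD55 kidney. A difference in CXCL9 was not detectable at this depth.

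IRF1, a transcription factor of the type II response (chromosome 2, 134776122 to 134783646), had 31.5 CPM in the transplanted and 4.27 in the untransplanted kidney of CD39/CD46/CD55/TBM, and 10.6 in the transplanted and 13.5 in the untransplanted CD39/CD55 kidney. The transplanted kidney of CD39/CD46/CD55/TBM was the highest library and its untransplanted counterpart the lowest, so the groups overlapped (log2 fold change 1.24, SE 0.61, adjusted p = 0.283). GBP1, a guanylate-binding protein that acts against intracellular microbes (chromosome 4, 127425699 to 127442132), had 75.8 CPM in the transplanted and 16.7 in the untransplanted kidney of CD39/CD46/CD55/TBM, and 7.11 in the transplanted and 9.11 in the untransplanted CD39/CD55 kidney. It stood high in 1 library of 4 (log2 fold change 1.68, SE 0.77, adjusted p = 0.249). GBP2, its neighbour, had 168 counts in the transplanted and 94 in the untransplanted kidney of CD39/CD46/CD55/TBM, and 97 in the transplanted and 97 in the untransplanted CD39/CD55 kidney, so again the same library stood apart (adjusted p = 0.437).

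SOCS1, the inhibitor that shuts off receptor kinases after interferon, had 46 counts in the transplanted and 49 in the untransplanted kidney of CD39/CD46/CD55/TBM, and 28 in the transplanted and 32 in the untransplanted CD39/CD55 kidney (log2 fold change 0.11, SE 0.60, adjusted p = 0.938). IRF8, a factor of myeloid cells, had 17 counts in the transplanted and 40 in the untransplanted kidney of CD39/CD46/CD55/TBM, and 22 in the transplanted and 46 in the untransplanted CD39/CD55 kidney. It was the 1 member with both transplanted kidneys below both untransplanted ones (log2 fold change -0.92, SE 0.60, adjusted p = 0.425). Over all genes, 4630 of 18168 had that order.

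**Figure D2:**
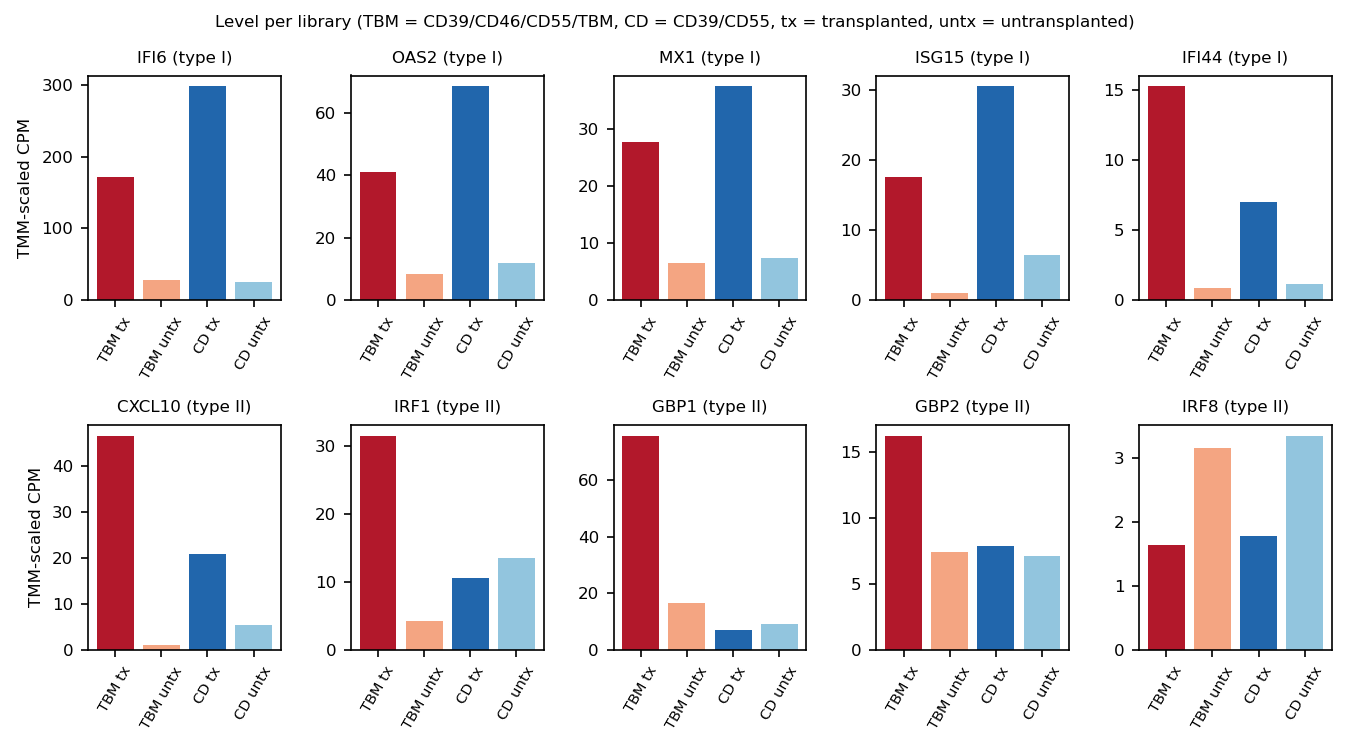
TMM-scaled CPM of 5 type I and 5 type II genes in each library, 1 bar per library, with a separate axis from 0 for each gene. IFI6, OAS2, MX1 and ISG15 are highest in the transplanted CD39/CD55 kidney, and IFI44, CXCL10, IRF1, GBP1 and GBP2 in the transplanted kidney of CD39/CD46/CD55/TBM.

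Each genotype was then taken alone, where a gene was called when the ratio of the 2 libraries was at least 2-fold and its exact 95% counting interval excluded 1. Such a call compares 2 libraries and not 2 conditions. In CD39/CD46/CD55/TBM, 23 of 34 members were called higher and none lower, against 15.9% and 16.3% of all genes. In CD39/CD55, 20 members were called higher and none lower, against 13.2% and 13.7% of all genes. With UBE2L6 and CXCL11, which met the minimum through transplanted libraries alone, left out, 22 and 18 of 32 members were called higher, against 2357 and 1889 of 17089 genes held to the same minimum. By type, 18 of 27 type I members were called higher in each genotype, while 5 of 7 type II members were called higher in CD39/CD46/CD55/TBM and 2 of 7 in CD39/CD55. Without UBE2L6 and CXCL11, the type I calls were 18 of 26 in CD39/CD46/CD55/TBM and 17 of 26 in CD39/CD55. The type II calls were then 4 of 6 and 1 of 6. The median log2 ratio of type I members was 1.51 in CD39/CD46/CD55/TBM and 1.72 in CD39/CD55. The median of type II members was 2.18 in CD39/CD46/CD55/TBM and -0.04 in CD39/CD55 (0.10 with total counts in place of TMM), and that of all genes 0.01 and 0.03. Without CXCL11 the type II median was 1.65 in CD39/CD46/CD55/TBM and -0.19 in CD39/CD55, and without UBE2L6 the type I median was 1.61 and 1.63. In CD39/CD46/CD55/TBM the type II median was thus above the type I median over all kept members (2.18 against 1.51). The 2 were close without UBE2L6 and CXCL11 (1.65 and 1.61). In CD39/CD55 the type II median was far below the type I median with or without these genes. Of the type II members, CXCL10 and CXCL11 were called higher in both genotypes, IRF1, GBP1 and GBP2 in CD39/CD46/CD55/TBM alone, and IRF8 and SOCS1 in neither. Of the type I members, 15 were called higher in both genotypes, against 5.88% of all genes. MX2, CMPK2 and PARP9 were called in CD39/CD46/CD55/TBM with no call in CD39/CD55 (9.70% of all genes). UBE2L6, with 10 counts or fewer, IFIH1 and IFI44L were called in CD39/CD55 with no call in CD39/CD46/CD55/TBM (6.90%).

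**Figure D3:**
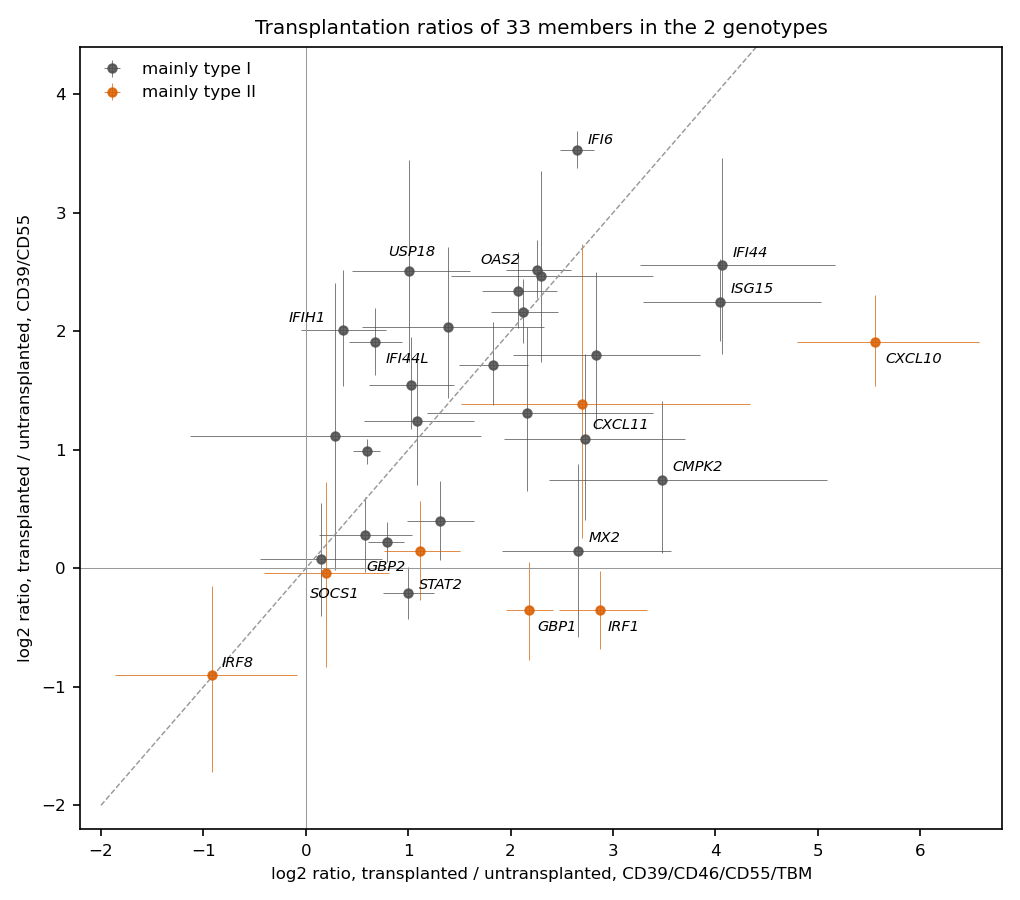
Log2 ratio of transplanted to untransplanted kidney for 33 members (UBE2L6, with 10 counts or fewer, is left out), CD39/CD46/CD55/TBM on the horizontal axis and CD39/CD55 on the vertical axis, with 95% counting intervals and the line of equal ratios dashed. IRF1 and GBP1 lie right of 2 on the horizontal axis and just below 0 on the vertical axis, while IFI6 lies above the dashed line.

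The size of the transplantation ratio was compared between the genotypes as a ratio of ratios over the 4 libraries, with a Wald counting interval and no residual degrees of freedom for a test. By the same rule 9 members were called higher in CD39/CD46/CD55/TBM and 3 lower, against 10.4% and 11.5% of all genes. The largest differences among the type II members were those of CXCL10 (log2 3.64, 95% counting interval 2.75 to 4.53), IRF1 (3.22, 2.70 to 3.74) and GBP1 (2.54, 2.09 to 2.98). GBP2, at 0.97 (0.43 to 1.52), lay just under the 2-fold limit. The type I members called higher were CMPK2 (2.73, 1.42 to 4.04), MX2 (2.51, 1.49 to 3.53), ISG15 (1.80, 0.93 to 2.66), IFIT2 (1.64, 0.60 to 2.68), IFI44 (1.52, 0.37 to 2.67) and STAT2 (1.21, 0.89 to 1.53). The 3 called lower were IFIH1 (-1.64, -2.26 to -1.03), USP18 (-1.50, -2.46 to -0.55) and IFI44L (-1.23, -1.61 to -0.86), all of type I. The median ratio of ratios was 1.30 over the type II and -0.04 over the type I members, and -0.01 over all genes.

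Part of these differences lay in the untransplanted kidneys. Between the transplanted kidneys, 6 members were called higher in CD39/CD46/CD55/TBM than in CD39/CD55 and 1 lower, against 11.0% of all genes in each direction. The 6 were GBP1 (log2 3.41, 95% counting interval 3.09 to 3.75), IRF1 (1.57, 1.28 to 1.88), MX2 (1.57, 0.99 to 2.20), CXCL10 (1.17, 0.95 to 1.39), IFI44 (1.12, 0.73 to 1.51) and GBP2 (1.05, 0.68 to 1.43), and the 1 lower was OAS1 (-1.23, -1.83 to -0.69). So 4 of 7 type II and 2 of 27 type I members were called higher in the transplanted kidney of CD39/CD46/CD55/TBM. The log2 ratio was below 0 in 16 of 27 type I members, with a median of -0.40, and above 0 in 6 of 7 type II members, with a median of 1.05. Over all genes it was above 0 in 9137 of 18168, with a median of 0.01. IFI6, ISG15 and OAS2 were among those below 0, with ratios of -0.79, -0.80 and -0.74.

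Between the untransplanted kidneys, 2 members were called higher in CD39/CD46/CD55/TBM than in CD39/CD55 and 6 lower, against 8.17% and 7.88% of all genes. USP18 (log2 1.61, 95% counting interval 0.76 to 2.59) and IFIH1 (1.19, 0.67 to 1.73) were higher. ISG15 (-2.60, -3.61 to -1.79), CXCL10 (-2.48, -3.54 to -1.64), CMPK2 (-2.37, -4.01 to -1.21), IRF1 (-1.65, -2.12 to -1.21), RSAD2 (-1.27, -2.53 to -0.22) and IFITM1 (-1.01, -1.43 to -0.62) were lower. The ratio was below 0 in 22 of 34 members, while over all genes it was above 0 in 9161 of 18168. For ISG15 the low untransplanted value set the larger ratio in CD39/CD46/CD55/TBM, since its level after transplantation was 17.6 CPM there and 30.6 CPM in CD39/CD55. For GBP1 it did not, since the untransplanted kidneys had a ratio of 0.87 in the same direction as the transplanted ones.

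**Figure D4:**
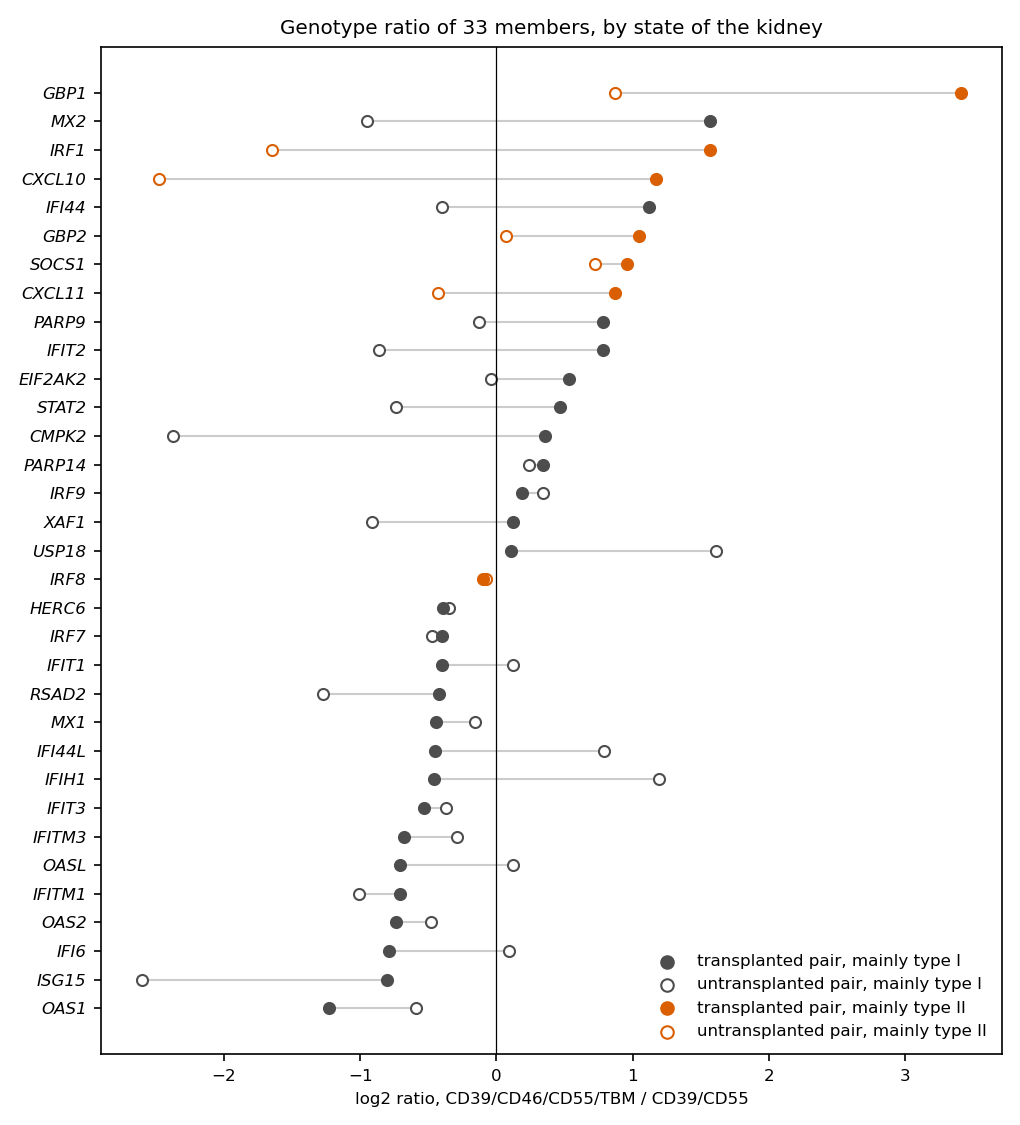
Log2 ratio of CD39/CD46/CD55/TBM to CD39/CD55 for 33 members, with filled points for the transplanted pair and open points for the untransplanted pair, ordered by the transplanted pair. Of the type II members, all but IRF8 have filled points right of 0, and ISG15, CXCL10, CMPK2 and IRF1 have open points left of -1.

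Over both states, 2 libraries against 2, no member differed between the genotypes in edgeR's quasi-likelihood test, and 0% of all genes did. At an unadjusted p under 0.05 there was 1 member, GBP1 (log2 fold change 2.51, edgeR adjusted p = 0.982), against 2.47% of all genes, and DESeq2 and limma voom also found none past the threshold. With state as a block, which leaves 1 residual degree of freedom, GBP1 passed (log2 fold change 2.14, SE 0.45, adjusted p = 0.0119). The share of all genes that passed with that block was not counted, so this call has no background beside it.

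Genes of the pathway outside the members were read from a list of 49 symbols, of which 34 were kept. TAP1, the peptide transporter of antigen presentation, was the 1 that rose, against 1.24% of all genes, and none fell, against 2.71%. It had 423 counts in the transplanted and 64 in the untransplanted kidney of CD39/CD46/CD55/TBM, and 224 in the transplanted and 115 in the untransplanted CD39/CD55 kidney (log2 fold change 2.13, SE 0.51, adjusted p = 0.0362). The 8 kept type II targets outside the members, TAP1 among them, had median log2 ratios of 1.30 in CD39/CD46/CD55/TBM and -0.13 in CD39/CD55. They did not all move one way. In CD39/CD46/CD55/TBM, TAP1, NLRC5, PSMB8, PSMB9 and PSMB10 were called higher. WARS (0.32) and CD274 (0.21) were not called there, and CIITA was called lower (-1.42). In CD39/CD55, TAP1 was called higher and the others were not called, with CIITA at -0.47. The ligands, whose rows were looked at beyond the list after values were seen, had few counts. Of 36 rows for interferon genes of all types, 7 had any count, and the highest was IFNE with 7 counts in the transplanted kidney of CD39/CD46/CD55/TBM. IFNB1 had no count in any library, and IFNG had 1 count, in the untransplanted kidney of CD39/CD46/CD55/TBM.

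Among the receptors, IFNAR1 had 196 counts in the transplanted and 275 in the untransplanted kidney of CD39/CD46/CD55/TBM, and 221 in the transplanted and 328 in the untransplanted CD39/CD55 kidney. IFNAR2, the other chain of the type I receptor, had 526 counts in the transplanted and 137 in the untransplanted kidney of CD39/CD46/CD55/TBM, and 166 in the transplanted and 94 in the untransplanted CD39/CD55 kidney (adjusted p = 0.0972). IFNAR2 was thus higher in both transplanted kidneys without passing the test. Of the type II receptor, IFNGR1 lay between 128 and 197 counts, while IFNGR2 had 248 counts in the transplanted and 72 in the untransplanted kidney of CD39/CD46/CD55/TBM, and 94 in the transplanted and 100 in the untransplanted CD39/CD55 kidney (adjusted p = 0.221). JAK2, the kinase bound to that receptor, had 2497 and 930 counts in the transplanted and untransplanted CD39/CD46/CD55/TBM kidneys, and 809 and 617 in those of CD39/CD55 (adjusted p = 0.205). In IFNAR2, IFNGR2 and JAK2 the transplanted kidney of CD39/CD46/CD55/TBM was the highest library in CPM. Of the 9 receptor and kinase genes none passed, and JAK1, TYK2 and IFNLR1 were highest in the transplanted CD39/CD55 kidney.

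Markers of other cells moved between the same libraries. Of 10 macrophage and monocyte markers, 6 fell, against 2.71% of all genes. Both transplanted kidneys lay below both untransplanted ones in 9 of the 10, as in 4630 of all 18168 genes. Their summed levels were 17.4 and 12.3 CPM in the transplanted CD39/CD46/CD55/TBM and CD39/CD55 kidneys, against 77.5 and 84.6 CPM in the untransplanted ones. C1QC was at 0 counts in both transplanted kidneys. CD14 went the other way and was called higher in both genotypes, without passing the test. It had 41 and 12 counts in the transplanted and untransplanted CD39/CD46/CD55/TBM kidneys, and 48 and 21 in those of CD39/CD55. The 5 pan-leukocyte markers summed to 22.6 and 17.5 CPM in the transplanted kidneys, against 56.3 and 61.0 CPM in the untransplanted ones. IRF8 moved with these lists, and their part in its level was not tested. The 7 T and NK cell markers summed to 1.84 and 1.45 CPM in the transplanted kidneys, against 4.66 and 7.79 CPM in the untransplanted ones. In the transplanted kidney of CD39/CD46/CD55/TBM CD3D, CD2 and PRF1 were at 0 counts. In the transplanted CD39/CD55 kidney CD3D and PRF1 were. These genes of pig T and NK cells were at low levels in all 4 libraries, and their relation to CXCL10 was not tested. The 5 markers of B and plasma cells, 1 of them kept, summed to 0.58 and 2.83 CPM in the transplanted kidneys, against 3.95 and 3.64 CPM in the untransplanted ones. The 2 kept markers of plasmacytoid dendritic cells, which make type I interferon, summed to 71.0 and 53.7 CPM, against 75.8 and 67.0 CPM. Nearly all of each sum was TCF4, with 69.6 and 51.6 CPM in the transplanted kidneys, against 74.5 and 63.3 CPM. IL3RA had 1.45 and 2.1 CPM, against 1.34 and 3.72 CPM. The sums overlapped between the states, but they describe mainly TCF4 and give no measure of dendritic cells. The 7 proximal tubule markers summed to 2890 and 5630 CPM in the transplanted kidneys, against 11700 and 9870 CPM in the untransplanted ones, and 5 fell. The 6 endothelial markers summed to 107 and 110 CPM, against 180 and 192 CPM, and 1 fell. All 6 had log2 ratios below 0 in CD39/CD55. In CD39/CD46/CD55/TBM, PECAM1, TEK and EMCN were below 0, while VWF, CDH5 and KDR were above 0 (0.42, 0.32 and 0.28) and not called. The part of these changes in the interferon response genes was not tested.

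Some members share their place in the genome with other genes, and how reads in such places were assigned is unknown here. CXCL10 and CXCL11 lie within the span of ART3, which had 584 counts in the transplanted and 50 in the untransplanted kidney of CD39/CD46/CD55/TBM, and 319 in the transplanted and 111 in the untransplanted CD39/CD55 kidney. The order of libraries was that of CXCL10, so the reads of the 2 genes cannot be told apart. ISG15 overlaps the end of LOC110261384, which had 149 and 9 counts in the transplanted and untransplanted CD39/CD46/CD55/TBM kidneys, and 350 and 81 in those of CD39/CD55, again in the order of ISG15. IRF1 overlaps SLC22A5, a carnitine transporter, which had 817 and 923 counts in the transplanted and untransplanted CD39/CD46/CD55/TBM kidneys, and 557 and 1071 in those of CD39/CD55, an order unlike that of IRF1. STAT2, IFIT1, IFIT2, IFIT3, OAS1, XAF1 and PARP9 also overlap another gene in the RefSeq table, and IFI6, MX1, OAS2, IFI44, HERC6, PARP14, GBP1 and GBP2 do not. GBP1 and GBP2 are paralogs, so reads may be split between them.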

How the data were processed

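RNA of 4 pig kidneys was sequenced, 1 library per group. Values as deposited are whole-number counts for each gene symbol, not normalized by the authors. Per the labels' protocols, a phenol/chloroform extraction preceded Lexogen QuantSeq libraries. Bowtie2, bedtools and the Sscrofa11.1 build come per the submitters' processing notes. Settings, such as strand and multiply mapped reads, are not stated there. Symbols on several lines (81 of 26466) were summed, and all matched the RefSeq gene table of Sscrofa11.1, from which positions were taken. No sequences were available to print.

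Genes with 10 or more counts in at least 1 library were kept and scaled by TMM. State and genotype were each tested over all genes with edgeR 4.0.16 (R 4.3.3), 2 libraries against 2, with 2 residual degrees of freedom, a threshold of 0.05 on adjusted p, and no block, so the spread holds the other factor, time and recipient. The SE is the log2 fold change over the square root of F. Pair ratios used a prior count of 0.5 and Clopper-Pearson intervals, which cover counting error only. Alternatives used DESeq2 1.42.0, limma 3.58.1, other scalings and filters, a block, and leaving out each library. Counts for every library were given for members past the test, for the 3 largest and 3 smallest ratios of ratios among those called, and for STAT2, IRF9, IRF1, IRF7, IRF8, USP18, SOCS1 and the CXCR3 ligands. Values of GBP1, GBP2, MX2, OAS1 and UBE2L6 were added after they were seen. The members and lists were chosen with earlier results of these data known.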

Additional observations from a re-analysis of the deposited data

Results flagged for a closer look

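In 4 members the transplantation ratio was above 0 in CD39/CD46/CD55/TBM and below 0 in CD39/CD55. The difference of the log2 ratios was 3.22 for IRF1, 2.54 for GBP1, 1.21 for STAT2 and 0.24 for SOCS1. These differences were not tested, since each genotype has 1 library per state. For SOCS1 the counting interval of the difference, -0.69 to 1.17, includes 0, and its CD39/CD55 ratio is 0.10 with total counts in place of TMM. For IRF1, GBP1 and STAT2 that interval lies above 0, but it covers counting error only. No outliers were sought, since no group has 4 libraries.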

How the results depend on the processing

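With genotype as a block, which leaves 1 residual degree of freedom, 16 type I members rose in place of 9 and the type II count remained 1. Leaving out 1 library at a time, which assumes that the lone sample varies like the others, gave 4 to 11 type I members that rose, and the 4 came when the untransplanted library of CD39/CD46/CD55/TBM was left out. The type II members that rose numbered 1 to 3, with 3 without the transplanted and 2 without the untransplanted CD39/CD55 library. For the fits that left out 1 library, the share of all genes that rose was not counted. The number of genes that pass can change with the fit. The movement of these member counts is therefore not read as a result about the members. With state as a block 1 member, GBP1, passed between the genotypes in place of 0, with no share of all genes counted beside it. Over the same omissions the log2 fold change of SOCS1, not called, was -0.45 to 0.53 and that of IRF7, also not called, -0.11 to 0.37. It turned negative for SOCS1 without the transplanted library of CD39/CD46/CD55/TBM or the untransplanted one of CD39/CD55 (-0.21), and for IRF7 without the transplanted CD39/CD55 (-0.10) or the untransplanted library of CD39/CD46/CD55/TBM. The cause was not tested. IFI6, OAS2, MX1, IFI44 and CXCL10 passed under all 12 alternatives. The other summary counts and medians stayed within 1.5 times or within their counting intervals under every alternative run. Without TMM factors the median log2 ratio of all genes was 0.08 in CD39/CD46/CD55/TBM and 0.16 in CD39/CD55, and the type II median in CD39/CD55 was 0.10 in place of -0.04, which was not called in either. Counting genes with 10 counts in an untransplanted library, an alternative chosen after seeing the data, gave 22 members called higher in CD39/CD46/CD55/TBM and 18 in CD39/CD55. Low counts limit UBE2L6, OASL, CXCL9, CXCL11 and ISG20. The labels give no replicate numbers, so genotype and state were the blocks that could be fitted.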

Other observations

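ISG12(A), an interferon-stimulated gene by its symbol and on none of the lists, was looked at after its values were seen. It had 843 counts in the transplanted and 109 in the untransplanted kidney of CD39/CD46/CD55/TBM, and 2457 in the transplanted and 189 in the untransplanted CD39/CD55 kidney (log2 fold change 3.64, SE 0.54, edgeR adjusted p = 0.00424). As in IFI6, the transplanted CD39/CD55 kidney was the highest library. SP110 and SP140, nuclear body genes related to SP100 and also chosen after their values were seen, had 956 and 694 counts in the transplanted and 341 and 347 in the untransplanted kidney of CD39/CD46/CD55/TBM, and 639 and 665 in the transplanted and 387 and 428 in the untransplanted CD39/CD55 kidney (adjusted p = 0.0962 and 0.168). LGALS3BP, a secreted glycoprotein gene from the same look, had 40 and 130 counts in the transplanted and untransplanted CD39/CD46/CD55/TBM kidneys, and 133 and 320 in those of CD39/CD55. It was called lower in both genotypes, with log2 ratios of -1.40 and -1.11, and did not pass the test (adjusted p = 0.266). LOC100151816, for which RefSeq lists IFIT5 as a synonym, had 47 and 35 counts in the transplanted and untransplanted CD39/CD46/CD55/TBM kidneys, and 51 and 27 in those of CD39/CD55 (adjusted p = 0.417). DTX3L, the partner of PARP9 that overlaps it in the genome, had 272 and 137 counts in the transplanted and untransplanted CD39/CD46/CD55/TBM kidneys, and 262 and 104 in those of CD39/CD55 (adjusted p = 0.104).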
